A study of Mus musculus with 2 samples.

Results

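The mitochondrial ribosomal protein genes were described in RNA sequencing of 2 mouse livers, as the genes whose symbol begins with Mrpl or Mrps followed by a digit, pseudogene symbols left out. The rule found 77 members among 35275 gene IDs: 50 whose proteins belong to the large subunit, 26 of the small subunit, and Mrps36, now assigned to a metabolic complex of the matrix and counted apart. One library was labelled LTsc1KO, from a C57BL/6 liver with the genotype TSC1-/-, a knockout that the series describes as liver specific. The other was labelled wild type, from a C57BL/6 liver. Both mice were 10 months old. The series concerns a liver cancer model with raised mTORC1, and its text speaks of tumour tissue, whereas both labels say liver. The sources used here name neither the promoter that drove the deletion nor the deleted exons or the sex of the mice. Each genotype has 1 library, so the values have no replicate check and no p-value, and genotype, animal and library cannot be told apart.

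Mitochondria carry their own ribosome, which translates the few messages of mitochondrial DNA, all of them for subunits of the respiratory chain and ATP synthase. Its RNAs come from mitochondrial DNA, but its proteins are encoded in the nucleus, made in the cytosol and imported. The kinase complex mTORC1, which Tsc1 and Tsc2 restrain, is known to promote the translation of nuclear messages for mitochondrial proteins, these among them; mRNA levels do not measure that step. Some mitoribosomal proteins have a counterpart in bacteria and others are particular to mitochondria.

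The promoters of the 3 members with the highest and the 3 with the lowest ratio between the libraries are shown first, because the 6 differ in the letters they hold and in where they lie. Each runs 5' to 3' from 250 bases before to 50 bases after the annotated start, from RefSeq on GRCm38.p6. Capitals mark any of 6 motifs, each searched on both strands. CCGGAAG is the core that factors of the ETS family, GABPA among them, are known to bind. AAGATGGC is the core bound by YY1, and GCGCATGC is part of the palindrome bound by NRF1. GGGCGG is the box recognised by the SP family of factors. The letters CCAAT are those bound by the trimeric factor NF-Y. The sixth motif, TATAAA, is the TATA box. A searched motif may overlap another, and overlaps are in capitals once. Mrps6 lies at chr16:92058086-92058385 on the plus strand, Mrps22 at chr9:98601630-98601929 on the minus strand and Mrps18b at chr17:35916391-35916690 on the minus strand. Mrpl57 lies at chr14:57825989-57826288 on the plus strand, Mrpl52 at chr14:54426659-54426958 on the plus strand and Mrps12 at chr7:28741772-28742071 on the minus strand.
Mrps6: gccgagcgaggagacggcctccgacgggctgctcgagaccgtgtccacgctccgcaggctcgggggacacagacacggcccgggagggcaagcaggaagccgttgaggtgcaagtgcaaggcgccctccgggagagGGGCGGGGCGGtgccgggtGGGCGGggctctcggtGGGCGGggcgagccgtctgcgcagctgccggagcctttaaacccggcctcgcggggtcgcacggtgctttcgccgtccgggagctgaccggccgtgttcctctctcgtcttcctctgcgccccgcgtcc
Mrps22: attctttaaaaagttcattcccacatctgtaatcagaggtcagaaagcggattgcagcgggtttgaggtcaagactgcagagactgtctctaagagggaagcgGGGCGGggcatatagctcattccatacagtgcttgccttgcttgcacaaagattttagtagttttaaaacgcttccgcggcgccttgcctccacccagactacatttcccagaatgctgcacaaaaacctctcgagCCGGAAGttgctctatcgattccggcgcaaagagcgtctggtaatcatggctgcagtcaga
Mrps18b: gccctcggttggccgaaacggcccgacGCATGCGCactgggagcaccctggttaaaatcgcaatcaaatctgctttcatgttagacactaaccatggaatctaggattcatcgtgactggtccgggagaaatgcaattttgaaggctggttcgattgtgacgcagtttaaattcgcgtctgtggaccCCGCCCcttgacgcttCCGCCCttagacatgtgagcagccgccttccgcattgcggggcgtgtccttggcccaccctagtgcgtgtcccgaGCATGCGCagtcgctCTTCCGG
Mrpl57: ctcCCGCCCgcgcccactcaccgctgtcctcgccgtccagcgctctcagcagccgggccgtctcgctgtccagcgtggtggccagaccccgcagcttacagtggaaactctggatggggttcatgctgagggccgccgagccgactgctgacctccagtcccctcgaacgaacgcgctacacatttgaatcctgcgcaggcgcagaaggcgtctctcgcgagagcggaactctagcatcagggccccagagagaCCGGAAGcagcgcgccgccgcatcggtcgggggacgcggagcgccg
Mrpl52: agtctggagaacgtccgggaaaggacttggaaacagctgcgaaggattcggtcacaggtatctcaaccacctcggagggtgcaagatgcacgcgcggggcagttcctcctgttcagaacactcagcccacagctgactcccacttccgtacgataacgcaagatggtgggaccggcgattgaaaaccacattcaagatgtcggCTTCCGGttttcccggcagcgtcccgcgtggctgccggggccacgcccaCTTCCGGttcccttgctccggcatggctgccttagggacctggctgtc
Mrps12: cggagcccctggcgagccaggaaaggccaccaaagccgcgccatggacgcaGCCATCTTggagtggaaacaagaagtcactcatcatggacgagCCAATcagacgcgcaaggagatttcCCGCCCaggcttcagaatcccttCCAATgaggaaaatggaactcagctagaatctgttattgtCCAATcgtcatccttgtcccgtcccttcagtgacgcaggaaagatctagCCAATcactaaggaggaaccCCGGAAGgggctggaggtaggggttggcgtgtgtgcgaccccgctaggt

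The ETS letters stood in 5 of these 6 windows, those of Mrps22, Mrps18b, Mrpl57, Mrpl52 and Mrps12, and so occurred at both ends of the order. The Mrps6 window held SP letters only, in 4 places. A promoter was in the RefSeq table for 68 of the 77 members. The ETS letters were found in 25 of these 68 (36.8%), against 9.93% of 27025 genes with a promoter, and the YY1 letters in 12 (17.6%), against 3.19%. In the bases before the start alone, the ETS letters were in 18 (26.5%), against 7.83%, and the YY1 letters in 4 (5.88%), against 1.83%. Over genes expressed in these livers the whole-window shares were 35.8% of 67 members against 20.2% of 9539 genes for ETS, and 17.9% against 5.27% for YY1. The NRF1 letters were in 10.4% of the expressed members and 6.02% of expressed genes. For SP letters the shares were 50.7% of expressed members and 67.3% of expressed genes, for CCAAT 37.3% and 43.0%, and for TATAAA 7.46% and 9.32%. Members with the ETS letters had a median log2 ratio of 0.33 with 6 of 24 at least 2-fold higher, and those without had 0.69 with 9 of 43. All expressed genes had a median of 0.70 with 35.6% higher. A match is a run of letters in this window and not a measured binding site.

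Expression was compared as FPKM, reads scaled by transcript length and by library total, as deposited. The log2 ratio is that of FPKM + 1 in the library labelled LTsc1KO over the library labelled wild type, and 2-fold means a log2 ratio of at least 1 or at most -1. A gene counted as expressed if its FPKM reached 1 in either library. Folds printed with an interval are plain FPKM ratios with 95% exact binomial (Clopper-Pearson) intervals on recovered reads, and cover counting error only. Depth was similar, with 29351163 reads recovered for the library labelled LTsc1KO and 27919645 for the library labelled wild type. Tsc1 itself stood at 4.79 FPKM in the library labelled LTsc1KO and 4.90 FPKM in the library labelled wild type, a ratio of 0.976 (interval 0.868 to 1.10), so the targeted gene does not check the labels and every direction depends on them. The libraries also differed widely elsewhere. Skeletal muscle markers summed to 2.72 FPKM in the library labelled LTsc1KO, where 7 of 14 were at 0, and to 3893 FPKM in the library labelled wild type, with 13 of 13 expressed markers lower in LTsc1KO. Proliferation markers were higher in 6 of 6 (225 FPKM summed in the library labelled LTsc1KO and 5.81 FPKM in the library labelled wild type), cholangiocyte markers in 4 of 5, endothelial markers in 2 of 4 and Kupffer cell markers in 1 of 6, where 1 was lower. Hepatocyte markers, 1 higher and 3 lower of 9, summed to 27454 FPKM in the library labelled LTsc1KO and 45035 FPKM in the library labelled wild type, and none was at 0 in either. Erythroid markers were lower in 4 of 5, neutrophil markers in 3 of 5 and stellate markers in 2 of 3. Of all expressed genes, 35.6% were at least 2-fold higher and 6.15% at least 2-fold lower. Saa1 and Saa2, acute phase proteins, made up 0.0173% of all FPKM in the library labelled LTsc1KO and 8.89% in the library labelled wild type. The part of these differences in the members' values was not tested. In whole tissue, fewer cells of a type and less RNA per cell cannot be told apart.

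The mitochondrial ribosomal protein genes were abundant and close to each other in level in both livers. The 76 expressed members had a median of 44.1 FPKM in the library labelled LTsc1KO, with a range from 8.90 to 144, and of 25.2 FPKM in the library labelled wild type, with a range from 3.97 to 118. The median member stood at the 80.1st percentile of expressed genes in the library labelled LTsc1KO and the 78.5th in the library labelled wild type. Together they summed to 3622 FPKM in the library labelled LTsc1KO, 0.503% of all FPKM, and to 2568 FPKM in the library labelled wild type, 0.315%. The SD of log2 FPKM over members was 0.99 in the library labelled LTsc1KO and 1.20 in the library labelled wild type; over all expressed genes it was 2.37 in the library labelled LTsc1KO and 2.76 in the library labelled wild type, so the narrowing was not particular to the members. Over cytosolic ribosomal protein genes this SD was 1.66 in the library labelled LTsc1KO and 1.63 in the library labelled wild type. Over genes for assembly of the mitoribosome it was 0.76 in the library labelled LTsc1KO and 1.02 in the library labelled wild type. Closeness in level was thus not particular to the members. Across members the log2 levels of the libraries had a Pearson r of 0.85 (76 genes, which share both libraries). Mrpl53 was listed at 0 in both libraries; 3 reads would give 0.146 FPKM in the library labelled LTsc1KO and 0.153 FPKM in the library labelled wild type. It lies within Gm42688, an annotated gene on the same strand with 1.06 FPKM in the library labelled LTsc1KO and 0.708 FPKM in the library labelled wild type, so how reads there were assigned is uncertain.

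**Figure D1:**
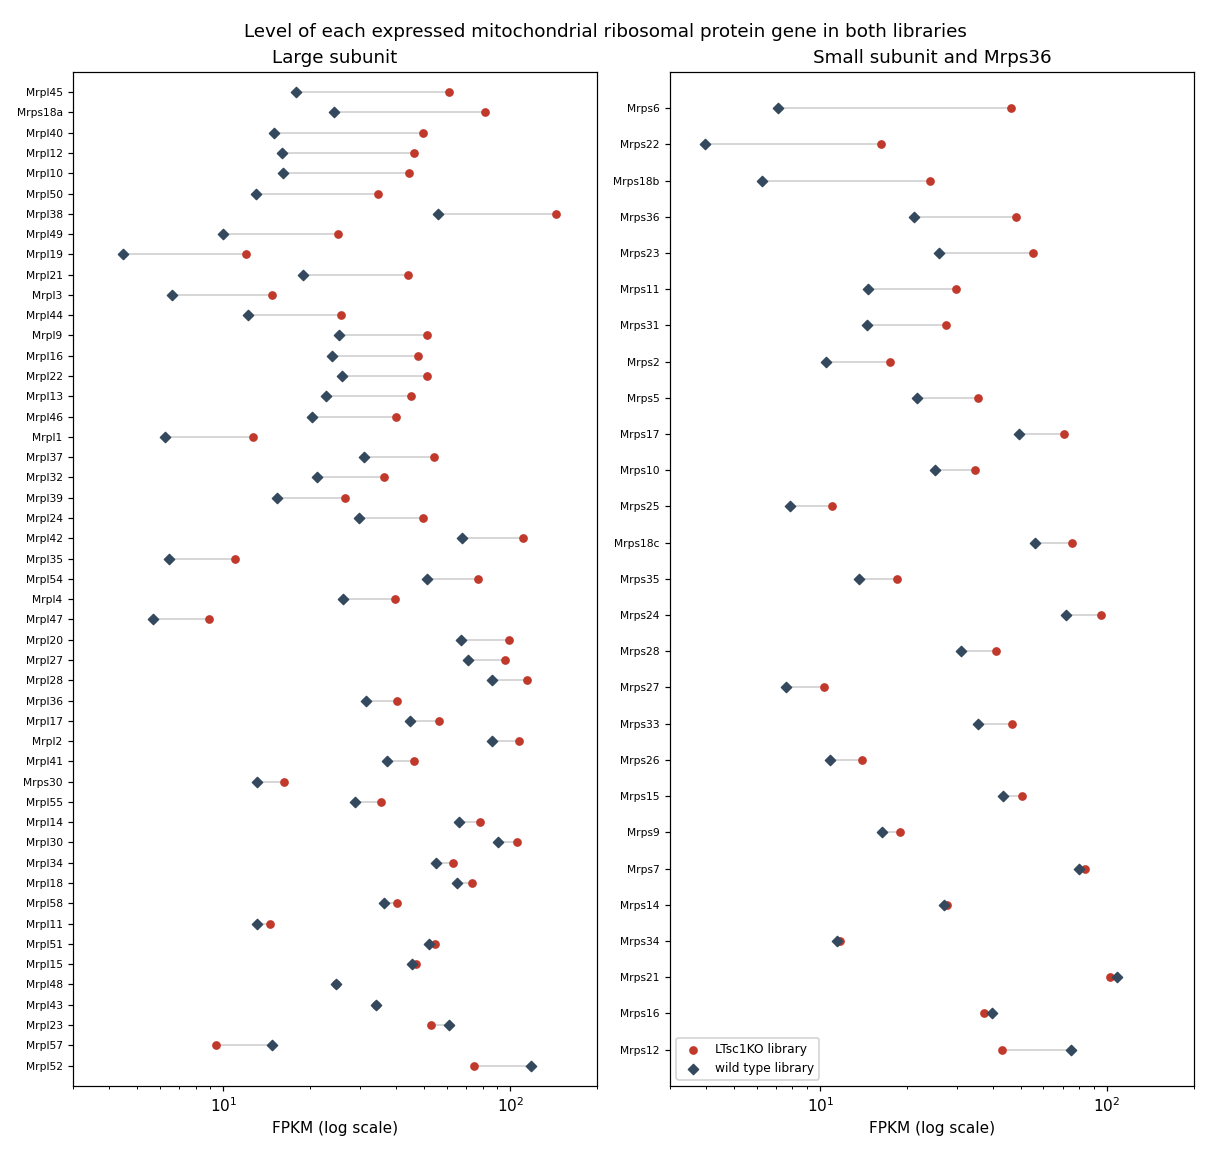
FPKM on a log scale of each expressed member in the library labelled LTsc1KO (circles) and the library labelled wild type (diamonds), ordered by log2 ratio within the large subunit (left) and the small subunit with Mrps36 (right). Most circles lie to the right of their diamond, by the most for Mrps6 (46.3 against 7.13 FPKM), and the lowest rows run the other way, as for Mrps12 (42.9 against 74.6 FPKM).

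Among the members with the highest mean level, most differed little between the livers. Mrpl28, a large subunit protein with a bacterial counterpart, had 114 FPKM in the library labelled LTsc1KO and 86.2 FPKM in the library labelled wild type. Mrpl2, which lies close to the peptidyl transferase centre, had 107 FPKM in the library labelled LTsc1KO and 86.3 FPKM in the library labelled wild type. Mrpl30 had 106 FPKM in the library labelled LTsc1KO and 90.7 FPKM in the library labelled wild type. The others, Mrps21, Mrpl38 and Mrpl52, are given with the ratios. At the low end, Mrpl47 had 8.90 FPKM in the library labelled LTsc1KO and 5.67 FPKM in the library labelled wild type, and Mrps27, an RNA-binding protein of the small subunit, had 10.3 FPKM in the library labelled LTsc1KO and 7.62 FPKM in the library labelled wild type. Mrpl35 had 11 FPKM in the library labelled LTsc1KO and 6.46 FPKM in the library labelled wild type. Mrpl19 had 12 FPKM in the library labelled LTsc1KO and 4.47 FPKM in the library labelled wild type, the widest fold of these 4.

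Most members had a higher FPKM in the library labelled LTsc1KO, and how they stood against all genes depended on the pseudocount added to FPKM and on transcript length. The log2 ratio was positive for 70 of 76 expressed members and negative for 6, with a median of 0.48 and a range from -0.78 to 2.54. It was positive for 9672 of all 12395 expressed genes. At least 2-fold higher were 17 of 76 (22.4%), where 35.6% of 12395 expressed genes were, and 0 of 76 were at least 2-fold lower, where 6.15% of all were. The median of all expressed genes was 0.70, so the deposited scale itself stands high in the library labelled LTsc1KO. With no filter on low values, which takes in 20568 genes, the median was 0.48 over members and 0.22 over all genes. At least 2-fold higher were then 22.4% of members and 21.4% of all. The genes so added lie under 1 FPKM in both libraries and cannot reach 2-fold with 1 added, so this setting decides nothing about the members. With FPKM of at least 5 in either library the members' values were the same, where 9005 genes had a median of 0.75 and 38.5% higher. With a pseudocount of 5 the medians were 0.40 over members and 0.42 over all genes. With the trend over transcript length removed they were 0.70 over both, with 31.6% of members and 35.4% of all genes higher. With the median ratio of genes at 1 FPKM or more in both libraries set to 0, a shift of -0.72, 5 members passed 2-fold as higher, against 15.6% of 11851 genes, and 3 as lower, against 12.7%. The members' median was then -0.19, with 31 positive and 45 negative, so the direction of the group as a whole depends on the scaling. The SD of the log2 ratio was 0.60 over members and 1.22 over all expressed genes. It was 0.44 over mitochondrial aminoacyl-tRNA synthetases, 0.49 over mitochondrial translation factors and 0.57 over cytosolic ribosomal protein genes. A narrow spread was thus not particular to the members. Among the lists given below, only the genes of mitochondrial DNA had a wider spread than the members, at 0.79. On the deposited scale, counting intervals lay above 1 for 62 members, below 1 for 4 and held 1 for 10. Intervals were not counted over all genes, so these counts are not shown to be particular to the members.

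**Figure D2:**
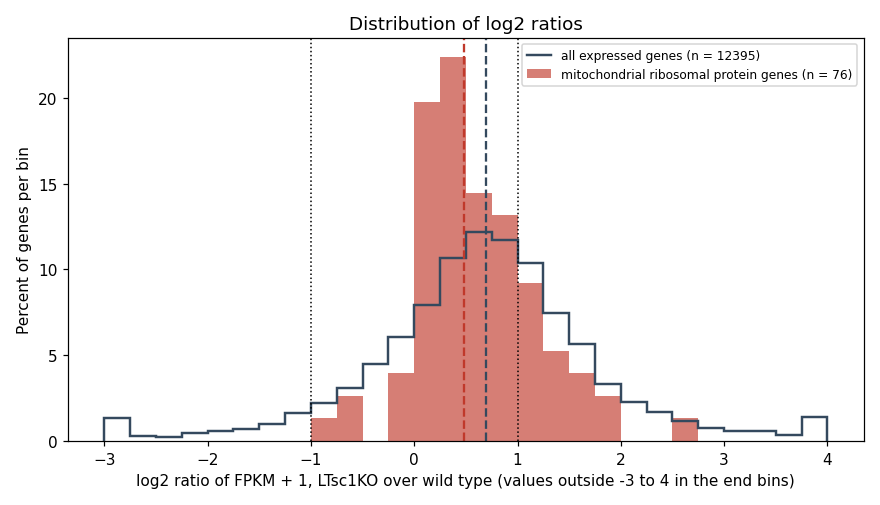
Percent of genes in bins of log2 ratio, LTsc1KO over wild type, for the 76 expressed members (filled) and all 12395 expressed genes (outline); dashed lines mark the medians of 0.48 and 0.70 and dotted lines the 2-fold limits. The members sit in a narrower band than all genes, and their median lies to the left of that of all genes.

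Level and length went with some of the difference from all genes. Members with a mean of 50 FPKM or more had a median log2 ratio of 0.32 (2 of 22 higher), where all genes at that level had 0.40 (25.6% higher). Members from 20 to 50 FPKM had a median of 0.75 (9 of 35 higher), where all genes had 0.69 (35.6% higher). Below 20 FPKM the members' median was 0.57 (6 of 19 higher) and that of all genes 0.75 (37.9% higher). In the middle range the median of members lay above that of all genes while their share past 2-fold did not. Members with transcripts under 1000 bases had a median of 0.40, close to the 0.42 of all such genes, and 35 of the 76 were that short. Members from 1000 to 2000 bases had 0.63 against 0.72 in all genes, and longer ones 0.69 against 0.78. Over members, the ratio had a Pearson r of -0.31 with mean level and of 0.13 with length, as a description of 76 genes from the same 2 libraries.

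**Figure D3:**
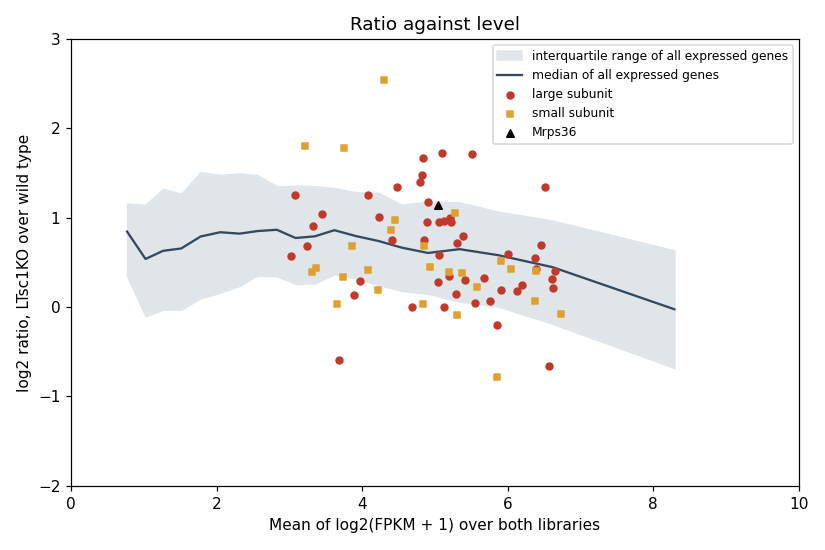
Log2 ratio, LTsc1KO over wild type, against the mean of log2(FPKM + 1) over both libraries, for large subunit members (circles), small subunit members (squares) and Mrps36 (triangle), with the median and interquartile range of all expressed genes in 20 bins of level. The line of all genes falls at high levels, with Mrps6, Mrps22 and Mrps18b among the points farthest above it and Mrps12, Mrpl52 and Mrpl57 farthest below.

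Large subunit genes had a median log2 ratio of 0.59 with 12 of 49 at least 2-fold higher, and small subunit genes 0.41 with 4 of 26. All expressed genes had a median of 0.70 with 35.6% higher, a share that none of the groups below reached. Members with and without a bacterial counterpart had medians of 0.57 (6 of 30 higher) and 0.70 (6 of 19 higher) in the large subunit. In the small subunit those medians were 0.40 (2 of 17 higher) and 0.41 (2 of 9 higher). Mrps36, counted apart from these groups, was 2.26-fold higher, at 47.9 FPKM in the library labelled LTsc1KO and 21.2 FPKM in the library labelled wild type. Its protein is now assigned to the 2-oxoglutarate dehydrogenase complex.

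Small subunit genes led the order. Mrps6, a protein of the subunit's platform, had 46.3 FPKM in the library labelled LTsc1KO and 7.13 FPKM in the library labelled wild type, a ratio of 6.49 (interval 5.53 to 7.63). It was the one member past 4-fold on the log2 scale. Mrps6 overlaps Slc5a3, an inositol transporter gene on the same strand, which had 2.94 FPKM in the library labelled LTsc1KO and 0.169 FPKM in the library labelled wild type, so reads in the overlap cannot be assigned with certainty. Mrps22, a protein with no bacterial counterpart, had 16.3 FPKM in the library labelled LTsc1KO and 3.97 FPKM in the library labelled wild type, a ratio of 4.12 (interval 3.58 to 4.75). Mrps18b had 24 FPKM in the library labelled LTsc1KO and 6.28 FPKM in the library labelled wild type, a ratio of 3.83 (interval 3.14 to 4.70). Mammals have 3 genes related to bacterial S18, and their products occupy different places in the mitoribosome. Mrps18a, whose product sits in the large subunit, was nearly as far apart, at 81.6 FPKM in the library labelled LTsc1KO and 24.2 FPKM in the library labelled wild type, a ratio of 3.37 (interval 3.09 to 3.68). The third, Mrps18c, had 75.6 FPKM in the library labelled LTsc1KO and 55.9 FPKM in the library labelled wild type, a ratio of 1.35 (interval 1.23 to 1.48). The intervals of Mrps18a and Mrps18b lie apart from that of Mrps18c.

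The large subunit genes with the highest ratios were Mrpl45, Mrps18a, Mrpl40, Mrpl12 and Mrpl10, whose proteins lie in different regions of the subunit. Mrpl45, which lies by the tunnel exit and ties the ribosome to the inner membrane, had 61.3 FPKM in the library labelled LTsc1KO and 17.9 FPKM in the library labelled wild type, a ratio of 3.42 (interval 3.15 to 3.72). The other 7 tunnel proteins had lower ratios, and the 8 had a median log2 ratio of 0.65. The stalk, which recruits translation factors, is built on Mrpl10 and carries Mrpl12. Mrpl12 had 46.3 FPKM in the library labelled LTsc1KO and 16 FPKM in the library labelled wild type, a ratio of 2.89 (interval 2.60 to 3.22). Mrpl10 had 44.2 FPKM in the library labelled LTsc1KO and 16.1 FPKM in the library labelled wild type, a ratio of 2.74 (interval 2.49 to 3.02). Mrpl11, at the foot of the stalk, differed less, with 14.5 FPKM in the library labelled LTsc1KO and 13.1 FPKM in the library labelled wild type, and its interval held 1 (0.968 to 1.27). Mrpl10 and Mrpl12 thus had nearly equal levels within each library, and Mrpl11 did not share their difference.

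The central protuberance, on top of the large subunit, held both high and low members. Mrpl40 had 49.8 FPKM in the library labelled LTsc1KO and 15 FPKM in the library labelled wild type, a ratio of 3.33 (interval 2.97 to 3.74). Mrpl38 had the highest FPKM of any member in the library labelled LTsc1KO, at 144, against 56.1 FPKM in the library labelled wild type, a ratio of 2.57 (interval 2.42 to 2.74). Mrpl52, of the same region, went the other way and is given with the low members, and the 7 genes placed there had a median log2 ratio of 0.28. Mrpl50, a protein with no bacterial counterpart, stood just above Mrpl38 in log2 ratio, with 34.6 FPKM in the library labelled LTsc1KO and 13.0 FPKM in the library labelled wild type, a ratio of 2.67 (interval 2.45 to 2.90). The 4 proteins near the peptidyl transferase centre had a median of 0.69, with Mrpl3 the highest at 1.04. The 5 proteins of the small subunit head had 0.20, with none past 2-fold and Mrps10 the highest at 0.45, and the 4 of the platform had 0.70, with a range from -0.08 for Mrps21 to 2.54 for Mrps6. These role groups were put together after the values were known. With the median ratio set to 0, the 5 members that were still at least 2-fold higher were Mrps6 (1.84), Mrps22 (1.14), Mrps18b (1.10), Mrpl45 (1.02) and Mrps18a (1.01).

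Of the 17 members at least 2-fold higher, 13 overlap another annotated gene on either strand. In 11 of these 13 no overlapping gene in the tables reached 3 FPKM in either library; for Mrps22 and Mrpl3, among the 11, the tables hold no overlapping gene, so its level is not known here. Slc5a3, which overlaps Mrps6, lay just under that limit but had 493 reads in the library labelled LTsc1KO, where Mrps6 had 1206 by the estimate from its length. The exceptions were Mrpl49, which overlaps Syvn1 (22.8 FPKM in the library labelled LTsc1KO, 40.3 FPKM in the library labelled wild type), and Mrpl44, which overlaps Wdfy1 (33.4 FPKM in the library labelled LTsc1KO, 12.5 FPKM in the library labelled wild type). Among the 36 members that overlap no gene, 4 were at least 2-fold higher and the median was 0.53. Over all expressed genes these were 35.6% and 0.70.

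In all, 6 members had a lower FPKM in the library labelled LTsc1KO. Mrps12, whose bacterial counterpart helps to check the match of codon and tRNA, had 42.9 FPKM in the library labelled LTsc1KO and 74.6 FPKM in the library labelled wild type, a ratio of 0.575 (interval 0.525 to 0.630). Mrpl52 had 74.5 FPKM in the library labelled LTsc1KO and 118 FPKM in the library labelled wild type, a ratio of 0.629 (interval 0.578 to 0.684). Mrpl57 had 9.44 FPKM in the library labelled LTsc1KO and 14.8 FPKM in the library labelled wild type, a ratio of 0.638 (interval 0.566 to 0.718). These 3 were the members that passed 2-fold lower once the median ratio was set to 0, at -1.48 for Mrps12, -1.36 for Mrpl52 and -1.23 for Mrpl57. Mrpl23, a protein at the exit of the tunnel, had 53.1 FPKM in the library labelled LTsc1KO and 60.9 FPKM in the library labelled wild type, a ratio of 0.871 (interval 0.816 to 0.930). The intervals of the other 2, Mrps16 and Mrps21, held 1. Mrps16 had 37.3 FPKM in the library labelled LTsc1KO and 39.8 FPKM in the library labelled wild type, and Mrps21 had 102 FPKM in the library labelled LTsc1KO and 108 FPKM in the library labelled wild type. Next in the order came 4 genes with almost equal values: Mrpl43 (34.0 FPKM in the library labelled LTsc1KO, 33.9 FPKM in the library labelled wild type), Mrpl48 (24.8 FPKM in the library labelled LTsc1KO, 24.7 FPKM in the library labelled wild type), Mrps34 (11.7 FPKM in the library labelled LTsc1KO, 11.5 FPKM in the library labelled wild type) and Mrps14 (27.7 FPKM in the library labelled LTsc1KO, 27.1 FPKM in the library labelled wild type). The 56 expressed members between the 10 highest and the 10 lowest had log2 ratios from 0.05 to 1.25.

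The 3 lowest members and Mrps16 lay in 2 stretches of the genome. Mrpl52, Mrpl57 and Mrps16 are the 3 members on chromosome 14, and Mrps12 is the one member in the first 50 Mb of chromosome 7, the proximal end. The medians over all genes of these stretches were low as well. Over expressed genes the median was 0.03 on chromosome 14 (407 genes) and -0.13 on proximal chromosome 7 (394 genes), while on the rest of chromosome 7 it was 0.75 (505 genes). On the other autosomes and X it ran from 0.62 on chromosome 17 to 1.05 on chromosome 15. At least 2-fold higher were 15.7% of genes on chromosome 14, 10.4% on proximal chromosome 7 and 52.8% on chromosome 15, against 35.6% of all. On chromosome 7 each of the first 5 windows of 10 Mb had a median between -0.25 and 0.02, and those from 70 Mb on lay between 0.53 and 0.88; the windows between, of 15 and 30 genes, had 1.09 and 0.24. Chromosome 14 was less even: 6 of its 13 windows, among them those of the 3 members, had medians from -0.24 to 0.13 and the others from 0.19 to 1.29, the highest over 18 genes. In both stretches together 105 of 801 genes were at least 2-fold higher. The 5 members on distal chromosome 7 had a median of 0.32, and Mrpl13, the one member on chromosome 15, had 0.95. The 4 members in the low stretches had a median of -0.63 and all 4 were negative, whereas 2 of the 72 elsewhere were, Mrpl23 and Mrps21. Of all expressed genes, 430 of 801 in these stretches were negative, and 2293 of 11594 elsewhere. The 72 members elsewhere had a median of 0.56 with 17 at least 2-fold higher (23.6%), where all genes elsewhere had 0.74 and 37.1%. The limits of the low stretches were set after the ratios had been seen, from gene positions in GENCODE M21 on GRCm38, and what sets these stretches apart was not tested.

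**Figure D4:**
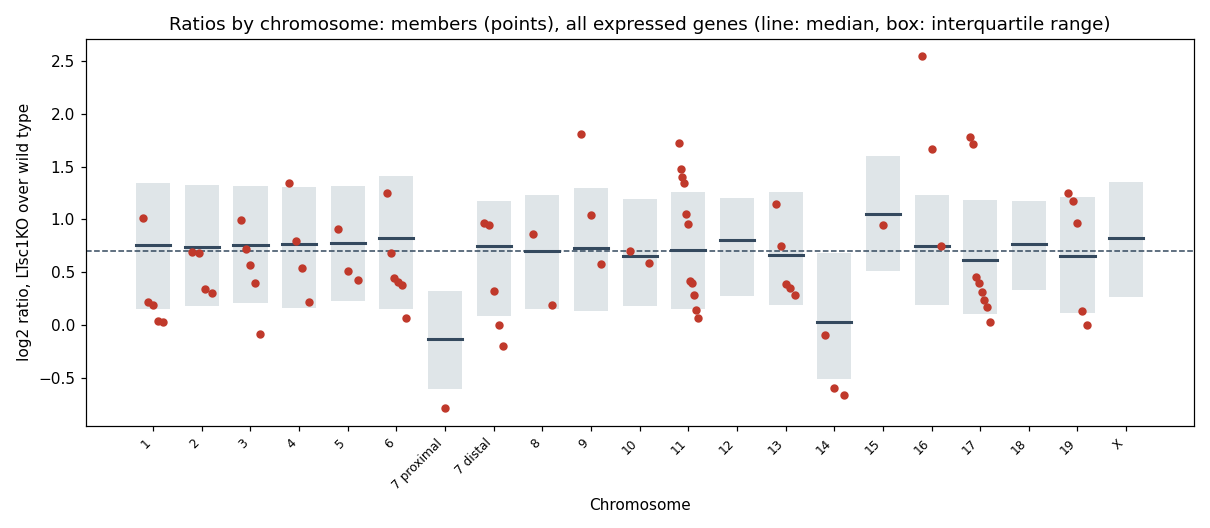
Log2 ratio, LTsc1KO over wild type, of each expressed member (points) by chromosome, with the median (line) and interquartile range (box) of all expressed genes there; the dashed line is the median of all expressed genes, 0.70, and chromosome 7 is split at 50 Mb. Boxes of chromosome 14 and proximal chromosome 7 sit low, and the 4 members there lie below those medians.

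The highest members were spread over more chromosomes. Of the 17 at least 2-fold higher, 5 were on chromosome 11 (Mrpl45, Mrpl12, Mrpl10, Mrpl38 and Mrps23) among 11 members there, and the median of all genes on that chromosome was 0.71. Mrps6 and Mrpl40 lie on chromosome 16, at 0.75 over all genes, and Mrps18a and Mrps18b on chromosome 17, at 0.62. With each chromosome's median ratio brought to that of all genes, 17 of 76 members passed 2-fold as higher and 0 as lower, and the median was 0.50. Of all genes 34.8% then passed as higher and 5.99% as lower, with a median of 0.70.

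Genes that work with the mitoribosome were set beside its proteins. A further 5 mitoribosomal proteins carry other symbols, and of these 0 passed 2-fold, with a median log2 ratio of 0.41. Ptcd3 (0.91) and Chchd1 (0.42) were the highest, and Aurkaip1 (0.11) and Gadd45gip1 (-0.12) the lowest. Genes for assembly of the ribosome and modification of its RNA had a median of 0.85, with 8 of 25 higher and 0 lower. Rpusd4, a pseudouridine synthase of the mitochondrial ribosomal RNA, stood at 1.63 and Fastkd2, an RNA-binding assembly factor, at 1.51, while Mterf3, a factor of the MTERF family, had -0.12 and Mettl17, of the methyltransferase-like family, had -0.63. Translation factors had a median of 0.66, with 5 of 15 higher and 0 lower. The elongation factor gene Gfm1 stood at 1.46 and Lrpprc, which stabilises mitochondrial messages, at 1.22, while the elongation factor Tsfm had 0.01 and the insertase Oxa1l had -0.28. Mitochondrial aminoacyl-tRNA synthetases had 0.75, with 8 of 19 higher and 0 lower. Qrsl1, of the glutamine pathway, stood at 1.49, while Nars2, for asparagine, had 0.29 and Sars2, for serine, had -0.14. The shares of higher genes in these lists lay on either side of the 35.6% of all genes.

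The lowest gene of several mitochondrial lists lay in the same low stretches as Mrps12 and Mrpl52. These are Oxa1l, Mettl17, Sars2, which starts next to Mrps12, and Tomm40, the pore for protein import. The lowest genes of other lists lay elsewhere, among them Gadd45gip1 (-0.12), Uqcrh (-1.09) and Rplp2 (-1.46). The 4 import genes in the low stretches had a median of 0.22, with Timm50 the highest at 0.73, and the 9 elsewhere had 0.72. In the translation factor list 2 genes lay in these stretches, with a median of -0.12, and 13 elsewhere, with 0.76. Chchd1, a mitoribosomal protein under another symbol, went the other way: it lies there at 0.42, while the 4 others of its list had a median of 0.26. For respiratory chain genes the 2 there, Ndufa3 and Cox6b1, had a median of -0.95 and the 73 elsewhere had 0.10. Cytosolic ribosomal protein genes had -0.53 over the 10 there, with Rpl15 at 1.28 the exception above 0, and 0.07 over the 68 elsewhere.

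The mRNAs that the mitoribosome translates, and those of the nuclear subunits that join their products, had lower median log2 ratios than the ribosome's own genes. Of 13 protein-coding genes of mitochondrial DNA, 1 was at least 2-fold higher and 3 were lower, with a median of -0.29. Of all expressed genes, 35.6% were higher and 6.15% lower. The complex I subunit mt-Nd5 stood at 1.24 and the ATP synthase subunit mt-Atp8 at 0.79, while mt-Nd3 of complex I had -1.19 and mt-Atp6 of ATP synthase had -1.32. Genes of mitochondrial DNA are transcribed together and cut apart, and mt-Atp8 and mt-Atp6 overlap, so the split of reads between them is uncertain. Levels within this list were very uneven: mt-Nd4l, mt-Co3, mt-Co2, mt-Atp6 and mt-Atp8 stood between 1.93 and 111 FPKM over both libraries, whereas mt-Co1 had 13076 FPKM in the library labelled LTsc1KO and 18432 FPKM in the library labelled wild type. Of the 3 lower genes, mt-Co2 (-1.08) and mt-Atp6 are among those at low levels, so their ratios are uncertain. Nuclear-encoded subunits of the respiratory chain and ATP synthase had a median of 0.08, with 1 higher and 2 lower of 75. Atp5b, the catalytic subunit of ATP synthase, stood at 1.24 and Ndufa6 of complex I at 0.92, while Cox6b1 of cytochrome c oxidase had -1.02 and Uqcrh of complex III had -1.09. Skeletal muscle, rich in these messages, was marked in the library labelled wild type by the sum of 3893 FPKM given above, and its part in these values was not tested. Genes for mitochondrial DNA transcription and replication had 0.53, with 1 of 10 higher and 0 lower. The nuclease Mgme1 (1.30) and the polymerase Polg (0.85) were the highest, and the helicase Twnk (-0.06) and Mterf1a (-0.44) the lowest. Import, chaperone and matrix genes had 0.45, with 3 of 13 higher and 0 lower. The chaperone Hspa9 (1.41) and the import motor protein Timm44 (1.21) were the highest, and the outer membrane channel Vdac2 (0.13) and Tomm40 (-0.41) the lowest.

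Cytosolic ribosomal protein genes, the counterpart in the cytosol, had a median of -0.03, with 4 higher and 1 lower of 78. Of all expressed genes, 35.6% were higher and 6.15% lower. Rps2 stood at 1.52 and Rplp0 at 1.37, while Rps24 had -0.92 and Rplp2 had -1.46. Many of these genes have close copies in the genome, so their values are uncertain. With the median ratio set to 0, where all genes had a median of 0.071, assembly genes had 0.18, aminoacyl-tRNA synthetases 0.12 and translation factors 0.004. On that scale the other lists turned or stayed negative: -0.14 for mitochondrial DNA transcription and replication, -0.26 for import, -0.29 for the mitoribosomal proteins under other symbols, -0.63 for the nuclear respiratory chain, -0.73 for cytosolic ribosomal proteins and -1.01 for mitochondrial DNA.

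**Figure D5:**
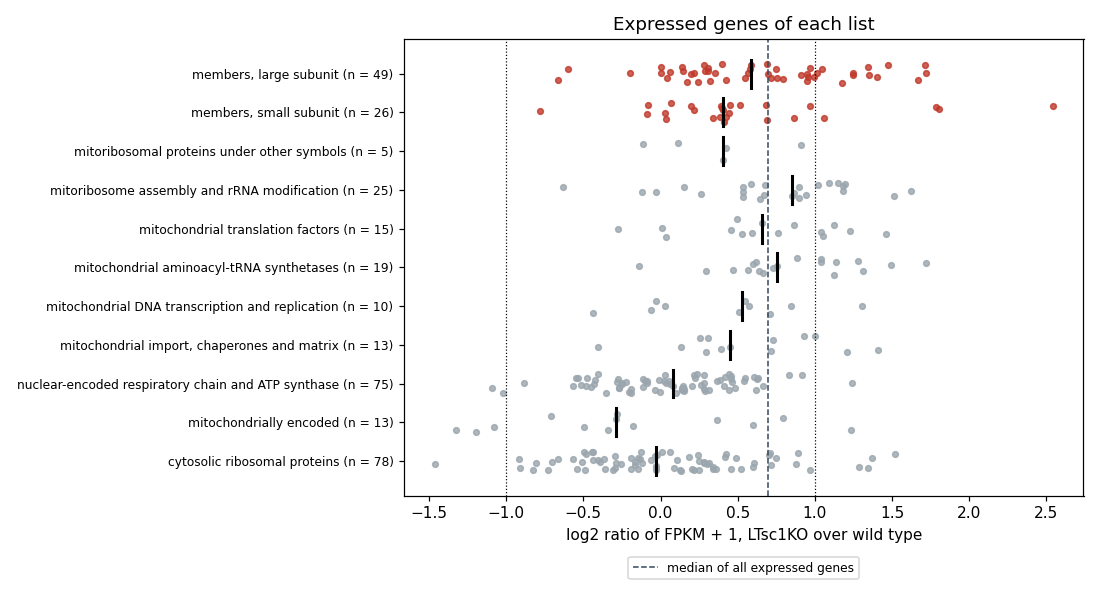
Log2 ratio, LTsc1KO over wild type, of each expressed gene in the members (top rows) and in 9 lists of mitochondrial and ribosomal genes; black bars mark list medians, the dashed line the median of all expressed genes (0.70) and dotted lines the 2-fold limits. Assembly genes reach a median of 0.85, large subunit genes 0.59 and small subunit genes 0.41, while respiratory chain genes gather near 0.08.

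Regulators known to act on nuclear genes for mitochondrial proteins had positive log2 ratios in 8 of 8 on the deposited scale, with a median of 0.64. On that scale 9672 of all 12395 expressed genes were positive, with a median of 0.70 and 35.6% at least 2-fold higher. With the median ratio set to 0, the regulators were positive in 4 of 8, with a median of -0.019. Myc, a growth regulator, was the 1 of 8 past 2-fold, with a ratio of 5.20 (interval 4.43 to 6.14). The coactivators stood at 0.95 for Ppargc1a, 0.68 for Ppargc1b and 0.53 for Pprc1. Factors that bind the letters shown in the promoters stood at 0.71 for Gabpa, 0.60 for Yy1 and 0.53 for Nrf1, and Esrra at 0.52. Apart from Myc, these log2 ratios lay between 0.52 and 0.95.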

How the data were processed

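The deposited tables, 1 per library, give FPKM per Ensembl gene, per the file headers. CASAVA 1.7, Bowtie 0.12.2 and the genome build mm8 appear in the submitters' processing notes without a role. How reads were counted, with which annotation and strand setting, and what was done with reads that fit several genes, the sources used here do not say. RNA was purified from flash-frozen liver, per the labels' protocols.

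Symbols came from GENCODE M21 on GRCm38 and matched 34490 of 35275 IDs (97.8%). Positions are GRCm38 and were not used with mm8. Read totals were recovered from the steps of low values, and reads per gene from annotated transcript lengths. Reads of 41 members came out whole within 0.0001 reads (wider for high counts, in proportion); those of the other members are estimates. The same steps were run on simulated reads made with the annotated lengths. That run cannot test whether those lengths fit the deposited values. No count model was used, since each genotype has 1 library.

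Genes named in full were the 10 highest and 10 lowest ratios, the 6 highest and 4 lowest levels, the extremes of each structural group, the 2 highest and 2 lowest of each other list, and Tsc1 with the 8 regulators. One gene that this rule names is not reported here. The members and lists, cell type markers included, were chosen with earlier results of these data known. Alternatives were pseudocounts of 0.1 and 5, other filters, equal totals with and without Saa1, Saa2 and muscle markers, upper quartile scaling, the median ratio set to 0, removal of trends over length, level and GC content, and a 4-fold limit. Motif letters were also searched in the bases before the start alone. Settings for overlapping genes and chromosome medians were chosen after the values were known. In the lists, 3 names were not analysed here. Computation used scipy 1.17.1, pandas 2.3.3 and numpy 2.4.6 in Python 3.11.15, and figures matplotlib 3.10.9.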

Additional observations from a re-analysis of the deposited data

How the results depend on the processing

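The counts and medians over the members depended on how the libraries were scaled. With equal FPKM totals the medians were 0.66 over members, 0.77 in the large and 0.58 in the small subunit, where all genes had 0.85. With the median ratio set to 0, 5 members passed 2-fold as higher and 3 as lower, and the medians turned to -0.19, -0.056 for the large and -0.27 for the small subunit. Upper quartile scaling gave 1 higher and 4 lower of 76, where 12.9% of all genes were higher and 15.1% lower. The medians were then -0.34, -0.19 and -0.42 in the same groups, and -0.077 over all genes. Removal of the trend over transcript length gave medians of 0.70, 0.78 and 0.52, where all genes had 0.70, and removal of the trend over level gave 0.61 over members and 0.71 in the large subunit. A 4-fold limit left 1 of 76 members higher, where 8.86% of all genes were. Among the 36 members that overlap no other gene, 4 were at least 2-fold higher, against 35.6% of all genes. Pseudocounts, filters and scalings were the settings run for single genes. Pseudocounts and filters cannot turn a sign, and no scaling shifted a ratio by as much as 2-fold. Named genes past 2-fold therefore could not change sign. Below 2-fold, signs did turn: with the median ratio set to 0, Mrpl2 went from 0.31 to -0.40 and Mrpl28 from 0.40 to -0.31. No paired analysis was possible because each genotype has 1 library. Between libraries that hold 1 animal each, depth limits the members little: all but Mrpl53 had at least 124 reads in each.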

Other observations

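Many members share a start region with another gene. In 33 members a protein-coding gene on the other strand starts within 1000 bases. No such count over all genes is given here, so it is not shown to be particular to the members. In 1 pair, Mrps11 and Mrpl46, both genes are members, at log2 ratios of 0.97 and 0.95. The other 29 expressed partners had a median log2 ratio of 0.46, with 8 at least 2-fold higher and 0 lower. Over all expressed genes the median was 0.70, with 35.6% higher and 6.15% lower. In 1 pair, Mrpl44 (1.01) and Wdfy1 (1.35), both genes were at least 2-fold higher. Mrpl51 and its partner Ncapd2, a condensin subunit used in mitosis, stood at 0.065 and 2.66. Mrpl51 had 54.5 FPKM in the library labelled LTsc1KO and 52.0 FPKM in the library labelled wild type, and Ncapd2 had 22.4 FPKM in the library labelled LTsc1KO and 2.69 FPKM in the library labelled wild type. Mrpl49 stood at 1.25 and its partner Fau, a cytosolic ribosomal protein gene, at -0.57. Mrps12 stood at -0.78 and its partner Sars2, which charges the mitochondrial serine tRNA, at -0.14. These pairs were chosen after their values were seen.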
